A study of Mus musculus with 12 samples.

Results

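The kidneys described here came from mice with induced glomerulonephritis that drank captopril (GN captopril), and they were compared with kidneys of control mice that drank water (control water). Each library was put in its group by its labels, with 3 libraries in each, so 6 of the 12 libraries of the series are compared here; the 2 groups were set against each other because their sex-linked transcripts match. All were C57BL/6 mice labelled adult and male. Glomerulonephritis had been induced by intraperitoneal injection of 10 mg horse spleen apoferritin, 5 times weekly for 6 weeks, with 100 micrograms of lipopolysaccharide, given 3 times weekly as adjuvant. Control mice had been injected with saline on the same schedule, and pieces of kidney cortex were taken at 9 weeks for stranded mRNA sequencing. Captopril is an inhibitor of angiotensin-converting enzyme; the sources used here give neither its dose nor the week it was started. Disease and drink change together between these groups, so their shares in a difference cannot be told apart. Whether a library came from 1 mouse or from a pool is not stated in the labels, and the p-values then measure only the spread between libraries.

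The remaining 6 libraries, GN on water and control on captopril, entered the same fit and so shared in its estimate of the spread between libraries. They also served to choose genes, by a contrast that holds none of the 6 described, and to test where the changes differed. That choice still shared the filter, the scaling and the estimate of spread with the 6 described, so it was not fully independent of them. The male label matched the Y-linked and Xist transcripts in every GN captopril and control water library (Y-linked sum 121 to 144 CPM, counts scaled to 1 M per library; Xist at most 0.182 CPM) and did not match them in the other 6, so GN captopril is set against control water and GN water against control captopril, pairs whose sex-linked transcripts match.

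In this model, injected foreign protein forms immune complexes that lodge in the glomerulus, the filtering unit of the kidney. Immune complexes are sensed through Fc receptors and complement, chemokines and adhesion molecules then draw leukocytes from the blood, and injured tubules and fibroblasts of the surrounding interstitium respond with injury markers and matrix. Angiotensin-converting enzyme makes angiotensin II, which constricts vessels, stimulates matrix production and normally restrains renin release from juxtaglomerular cells.

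Sequencing depth was 16.5 to 22.8 M counts a library (M, mega) in control water and 14.2 to 18.7 M in GN captopril, and the rank correlation between libraries of 1 group was 0.991 or more. Defining markers of the proximal tubule (Lrp2, Slc34a1 and Slc5a2, summed 7060 to 10295 CPM) were present in all 6. Tissue from beside the kidney was not evenly spread. Over the 5 adrenal cortex genes measured (Cyp11a1, Cyp11b1, Cyp21a1, Star and Hsd3b1) the sum was 0.884 to 1.10 CPM in control water, and 0.996, 19.0 and 117 CPM in GN captopril libraries 1, 2 and 3. The 3 fat cell markers (Adipoq, Plin1 and Cidec) summed to 5.58 to 23.2 CPM in control water and to 0.399, 32.3 and 92.9 CPM in the same GN libraries. Most counts that moved by more than 1.5 times with GN captopril library 1 alone against the controls are therefore given both ways. Some counts of 1 call in a list are not, and such calls are not shown to hold with library 1 alone. A single library also yields fewer calls by its number.

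Of 14618 genes tested, 1031 (7.05%) were higher and 734 (5.02%) were lower in GN captopril than in control water, 12.1% in all (edgeR's quasi-likelihood test, Benjamini-Hochberg adjusted p under 0.05). Changes of 2-fold or more went mostly upward, with 422 genes higher (2.89%) and 28 lower (0.192%). The split of the calls depended on the scaling and on the libraries fitted. With the main scaling 58.4% of them were upward, with RLE scaling 58.9% and with upper quartile scaling 71.8%. When only the 6 libraries were fitted, with the main scaling method, 77.3% were upward, with 735 higher and 216 lower. At the same time the 95% interval of the change lay wholly within 1.5-fold of control for 10152 genes (69.4%). Below, a gene is said to be at control level where its interval lay there and it was not called. Without GN captopril library 3 the calls fell to 608 higher and 360 lower, without control water library 2 to 597 and 378, and without GN captopril library 2 the lower calls numbered 451. With GN captopril library 1 alone against the controls, 204 genes were higher and 67 lower. The median change over all genes was -0.02 (log2). Every count of called list members below is to be read beside the shares of all genes, 7.05% higher and 5.02% lower.

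Among the largest rises were genes of activated myeloid cells. Saa3, an acute-phase apolipoprotein, had 0.0466, 0 and 0.0645 CPM in the control libraries and 2.13, 3.51 and 57.7 CPM in GN captopril libraries 1 to 3. Marco, a scavenger receptor of macrophages, had 0, 0.0607 and 0 CPM against 1.99, 1.87 and 21.7 CPM. Irg1 (Acod1), which makes itaconate in activated macrophages, had 0, 0 and 0.0645 CPM against 2.79, 1.97 and 5.81 CPM. In all 3 genes the controls were close to 0 and GN captopril library 3 stood highest. The summed counts, scaled for depth, gave ratios of 509.6 for Saa3 (95% counting interval 141 to 4214) and 180.0 for Irg1 (31.9 to 7156), intervals that cover counting error only. The adjusted p values were 0.0307 for Saa3, 0.0332 for Marco and 0.000281 for Irg1, and the calls of Saa3 and Marco were lost without GN captopril library 3 and without any 1 of the control libraries. Fpr1 and Fpr2, receptors for bacterial and mitochondrial formyl peptides on phagocytes, and Clec4n and Clec4d, C-type lectins of myeloid cells, rose as well. Fpr1 had 0.0466, 0 and 0.0645 CPM in controls and 3.45, 2.63 and 5.88 CPM in GN captopril (adjusted p = 0.000106), and Clec4n had 0.0931, 0.0607 and 0.129 against 3.92, 4.33 and 6.46 CPM (adjusted p = 0.000239; fitted log2 fold change 5.61 ± 0.96, where ± gives 1 SE).

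Most macrophage and monocyte genes rose. Of 22 tested members 19 were higher and 0 lower, against 7.05% higher among all genes, and the median change was 1.45 (log2). Lyz2, the lysozyme of macrophages and granulocytes, was at 31.7, 32.1 and 33.97 CPM in controls and 263, 257 and 596 CPM in GN captopril. All GN libraries lay far above the controls, and library 3 had more than the other two. The log2 fold change was 3.51 ± 0.30, an 11.4-fold rise (adjusted p = 0.000106). Adgre1, the F4/80 antigen of tissue macrophages, rose from 8.57, 7.52 and 7.74 CPM to 30.95, 29.02 and 62.4 CPM (log2 2.34 ± 0.30, adjusted p = 0.000547), with the same library highest. Cx3cr1, the fractalkine receptor of resident macrophages and patrolling monocytes, was tighter, at 9.92, 8.68 and 8.06 CPM against 18.5, 17.8 and 21.6 CPM (log2 1.11 ± 0.10, adjusted p = 0.000106). Ms4a7 rose by 2.44 ± 0.28 (log2, adjusted p = 0.00026). In whole tissue, more cells of a type and more RNA per cell cannot be told apart. With GN captopril library 1 alone, 10 members of this list were still higher.

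Lymphocyte genes rose in part. Of 21 T and natural killer cell genes 13 were higher and 0 lower (median 1.47). Cd4, the co-receptor of helper T cells, had 0.931, 0.728 and 0.967 CPM in controls and 3.59, 4.99 and 5.24 CPM in GN captopril, with no overlap (log2 2.38 ± 0.34, adjusted p = 0.00079). Cd3g, part of the T cell receptor complex, had 0.931, 0.910 and 0.838 against 3.19, 3.89 and 4.38 CPM (log2 2.08 ± 0.26, adjusted p = 0.000435). Nkg7, a granule protein of cytotoxic lymphocytes, rose by 2.27 ± 0.37 (log2, adjusted p = 0.00187) and the kinase Lck by 1.12 ± 0.19 (adjusted p = 0.00244). Of 10 B and plasma cell genes 3 passed the test, Jchain, Cd22 and Sdc1. Every GN captopril library was above every control in 18 of the 21 and 7 of the 10 genes, against 14.7% of all genes. Jchain, which links IgA and IgM polymers in plasma cells, was at 1.63, 1.58 and 1.16 CPM in controls and 33.1, 52.1 and 93.3 CPM in GN captopril. Each GN library was more than an order of magnitude above every control, with library 3 highest and library 1 lowest. The fitted change of Jchain was 5.32 ± 0.83 (log2, 40.04-fold, adjusted p = 0.000441). Cd22, an inhibitory B cell receptor, rose by 1.67 ± 0.35 (adjusted p = 0.00847). With GN captopril library 1 alone the T and natural killer cell calls fell to 2 and the B and plasma cell calls to 1. Genes that the tested part of the lymph node list holds summed to 11.9 to 13.7 CPM in controls and to 17.9, 20.0 and 34.0 CPM in GN captopril. Of its 3 defining markers only Ccl21a was measured (1.46 to 2.32 CPM in controls, 1.06 to 3.52 CPM in GN captopril), and its part in the lymphocyte result was not tested.

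Few neutrophil genes were measured. Of 6 tested, 5 were higher: S100a8, S100a9, Csf3r, Mmp9 and Fpr1. S100a9, a subunit of calprotectin, had 0.466, 0.971 and 0.580 CPM against 1.93, 1.43 and 2.01 CPM (log2 1.42 ± 0.34, adjusted p = 0.0169), and Csf3r, through which granulocyte colony-stimulating factor acts, had 1.72, 1.64 and 0.774 against 4.52, 3.68 and 4.52 CPM (log2 1.59 ± 0.26, adjusted p = 0.00215). The count of 5 fell to 2 without GN captopril library 3, without control water library 1 and without control water library 3, and to 3 without control water library 2, and it was 2 with GN captopril library 1 alone. The blood and globin genes tested summed to 1088 to 1542 CPM in controls and to 2347, 1318 and 2228 CPM in GN captopril, and their part in the neutrophil result was not tested.

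**Figure D1:**
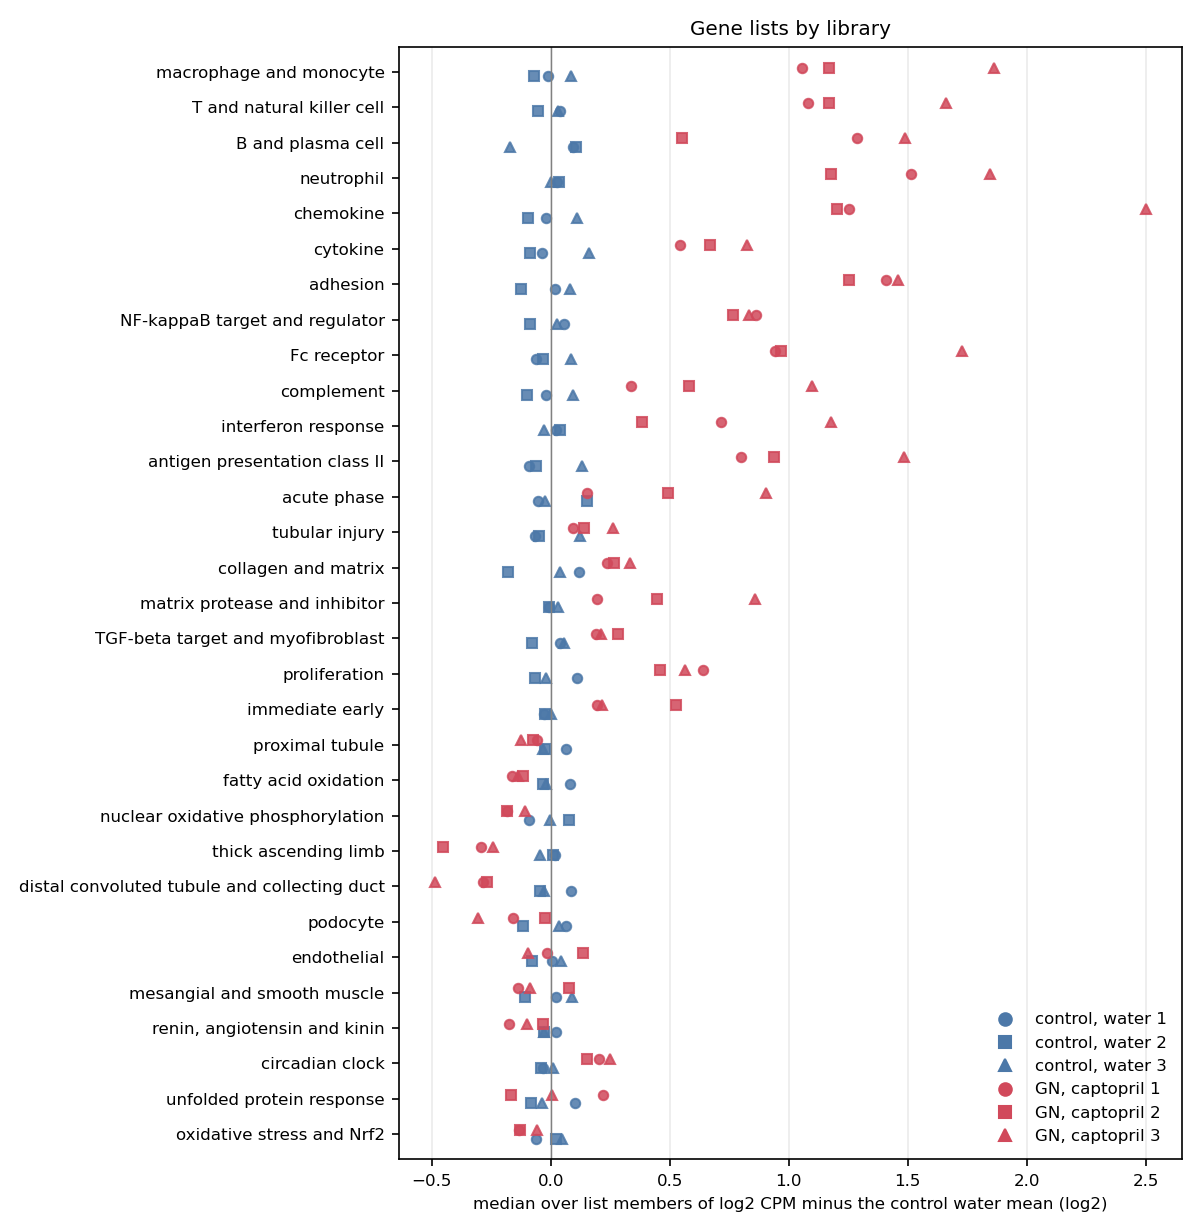
Each point is 1 library; the x axis gives the median over the tested members of a gene list of log2 CPM minus the mean of the control water libraries, and the y axis gives the list. Leukocyte and signalling lists lie right of the controls in all 3 GN captopril libraries, library 3 (triangles) farthest in most of them, with acute phase genes of library 1 level with a control, while proximal tubule, endothelial and mesangial lists stay near 0.

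Chemokines, the attractants that bring these cells, had the highest median of the signalling lists. Of 21 tested chemokine genes 17 were higher and 0 lower (median change 2.15), and 11 were higher without control water library 2 and 6 with GN captopril library 1 alone. Ccl8 and Cxcl13, which attract monocytes and B cells, were near 0 in controls. Ccl8 had 0.0931, 0.0607 and 0.0645 CPM there and 3.85, 3.40 and 12.9 CPM in GN captopril (adjusted p = 0.00047). Cxcl13 had 0.0931, 0.0607 and 0.0645 CPM against 1.59, 2.58 and 11.8 CPM (adjusted p = 0.00863), most of it in library 3. Ccl2, the main ligand of the monocyte receptor Ccr2, was even across GN libraries at 4.45, 3.84 and 4.66 CPM, against 0.605, 0.243 and 0.903 CPM in controls. It rose 7.35-fold (log2 2.88 ± 0.41, adjusted p = 0.000641). Ccl5, an attractant of T cells, rose by 2.39 ± 0.34 (adjusted p = 0.000824) and Cxcl9, induced by interferon gamma, by 2.46 ± 0.39 (adjusted p = 0.00152). Cxcl12 and Cxcl14, made by stroma and epithelium, were at control level.

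Among cytokines 8 of 13 were higher and 0 lower (median 0.71), and 4 were higher with GN captopril library 1 alone. Il1b, made by activated macrophages, had 1.58, 1.33 and 1.74 CPM against 4.12, 4.94 and 4.95 CPM (log2 1.59 ± 0.21, adjusted p = 0.000553). Csf1, the growth factor of macrophages, rose from 8.89, 9.10 and 9.86 to 17.7, 18.98 and 21.3 CPM (log2 1.06 ± 0.13, adjusted p = 0.000441). Tnfsf10, encoding the death ligand TRAIL, had 57.1, 54.9 and 60.6 CPM against 87.3, 108 and 102 CPM. Its rise of 0.78 ± 0.07 (adjusted p = 0.000124) exceeded that between GN water and control captopril (0.22 ± 0.07), with an adjusted p of the difference of 0.00847. Tnfsf13b, the B cell survival factor BAFF, rose by 1.26 ± 0.21 (adjusted p = 0.00234).

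Most adhesion molecules rose. Vcam1 (chr3:116110020-116129688 in GRCm38), which activated endothelium and injured tubule cells display to leukocytes, was at 13.1, 10.3 and 12.8 CPM in controls and 32.7, 30.7 and 35.2 CPM in GN captopril. The GN libraries spanned a narrow range that began well above the highest control. The rise was 2.72-fold (log2 1.44 ± 0.11, adjusted p = 8.45e-05). Icam1, the ligand of leukocyte integrins, had 21.6, 19.96 and 22.3 CPM against 38.7, 36.1 and 40.5 CPM (log2 0.85 ± 0.09, adjusted p = 0.000239), and Itgal, one of those integrins, rose by 1.64 ± 0.24 (adjusted p = 0.00113). Sele, the selectin of activated endothelium, was low throughout, at 0.0466, 0.0607 and 0.0645 CPM in controls and 0.930, 1.04 and 0.431 CPM in GN captopril (adjusted p = 0.000793). In all, 10 of 12 adhesion genes were higher and the other two, Icam2 and Itgb7, were at control level; with GN captopril library 1 alone 6 were higher.

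Targets and regulators of NF-kappaB, the transcription factor downstream of Toll-like receptor and TNF signalling, were raised in 14 of 16 cases, with a median of 0.85. Tnfaip3, the deubiquitinase A20 that shuts the pathway off, was at 6.94, 6.37 and 7.03 CPM against 12.6, 11.8 and 10.98 CPM (log2 0.80 ± 0.11, adjusted p = 0.000733). Birc3, an inhibitor of apoptosis, was at 9.96, 8.50 and 8.70 against 16.1, 14.9 and 15.9 CPM (log2 0.78 ± 0.09, adjusted p = 0.000262). The groups did not overlap in either gene. Casp4, the inflammatory caspase that senses lipopolysaccharide in the cytosol, rose by 1.88 ± 0.24 (adjusted p = 0.000517) and Tlr2 by 1.42 ± 0.19 (adjusted p = 0.000722). Nfkb1 was at control level. Of the 16, 6 were higher with GN captopril library 1 alone.

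RefSeq promoters (GRCm38.p6, 250 bases before to 50 after a start) were found for 28 of the 41 raised chemokine, adhesion and NF-kappaB genes, and those of 6 of the 28 genes (21.4%) hold GGG, any 2 bases, then TTTCC, a form of the NF-kappaB site, on either strand. Over all promoters 512 of 27025 genes (1.89%) hold it. The 100 bases before the start are shown for 4 of these genes, 2 chemokines and 2 inhibitors of the pathway, with matches in capitals. They lie at chr5:90891145-90891244 on the plus strand for Cxcl1, and on the minus strand at chr11:83578637-83578736 for Ccl9, chr12:55492648-55492747 for Nfkbia and chr10:19015411-19015510 for Tnfaip3.
Cxcl1: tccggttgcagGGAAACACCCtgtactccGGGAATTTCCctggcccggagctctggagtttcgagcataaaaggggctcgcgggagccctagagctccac
Ccl9: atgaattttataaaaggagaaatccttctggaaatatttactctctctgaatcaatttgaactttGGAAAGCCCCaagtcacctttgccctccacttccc
Nfkbia: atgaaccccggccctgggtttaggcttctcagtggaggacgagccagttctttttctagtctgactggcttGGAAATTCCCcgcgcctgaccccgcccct
Tnfaip3: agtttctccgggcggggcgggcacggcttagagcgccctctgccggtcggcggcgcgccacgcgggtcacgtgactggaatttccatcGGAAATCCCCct
Cxcl1 has 2 matches in this window and each of the others has 1. A match describes the letters and shows no binding, and these motifs were chosen after the values were known. The lists were made of genes of this response, so a share above that of all genes goes with their choice. The share among their uncalled members was not computed.

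Genes of the interferon response rose in part. Of 34 tested 22 were higher and 0 lower (median 0.80), and 12 were higher with GN captopril library 1 alone. The raised ones included the GTPases of the Gbp and Irg families, which attack intracellular pathogens (Gbp2, Gbp3, Gbp4, Gbp5, Gbp7, Igtp, Irgm1, Irgm2, Iigp1 and Tgtp1), the immunoproteasome and peptide transporter genes (Psmb8, Psmb9 and Tap1) and transcription factors of the pathway (Stat2, Irf1, Irf7, Irf8 and Irf9), with Oasl2, Bst2 and Ifi47. Irf1 was at 19.04, 18.1 and 18.6 CPM in controls and 38.4, 35.3 and 49.9 CPM in GN captopril (log2 1.14 ± 0.12, adjusted p = 0.000239). Gbp2 was at 15.6, 12.6 and 15.8 CPM against 44.1, 31.9 and 78.7 CPM (log2 1.80 ± 0.27, adjusted p = 0.00128), with library 3 highest and no overlap. Tap1 rose by 1.44 ± 0.21 (adjusted p = 0.00119) and Irf8 by 0.80 ± 0.09 (adjusted p = 0.00026). Rsad2, Ifi44 and Usp18, targets of type I interferon, were at control level. The median over the list was about that between GN water and control captopril (0.83).

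Promoters of 10 of the 19 raised interferon genes with a RefSeq entry (52.6%) hold GAAA, any 2 bases, then GAAA, the core of the interferon-stimulated response element, on either strand, against 3.99% of all 27025 genes. The list was made of interferon response genes, so a share above that of all genes goes with the choice of list. The share among its uncalled members was not computed, so the figure says nothing about the rise. The 100 bases before the start are shown for 7 GTPase genes that rose together, with matches in capitals. Gbp2, Gbp3 and Gbp7 lie on the plus strand of chromosome 3, at chr3:142620563-142620662, chr3:142559944-142560043 and chr3:142530236-142530335. On chromosome 11, Igtp is at chr11:58199456-58199555 and Irgm2 at chr11:58214877-58214976 on the plus strand, and Irgm1 is at chr11:48871421-48871520 and Tgtp1 at chr11:48992247-48992346 on the minus strand.
Gbp2: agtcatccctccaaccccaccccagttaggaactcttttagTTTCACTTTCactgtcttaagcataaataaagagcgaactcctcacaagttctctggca
Gbp3: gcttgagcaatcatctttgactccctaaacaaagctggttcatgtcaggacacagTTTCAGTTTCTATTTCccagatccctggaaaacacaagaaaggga
Gbp7: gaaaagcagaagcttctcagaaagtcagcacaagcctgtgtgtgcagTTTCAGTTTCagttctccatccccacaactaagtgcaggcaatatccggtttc
Igtp: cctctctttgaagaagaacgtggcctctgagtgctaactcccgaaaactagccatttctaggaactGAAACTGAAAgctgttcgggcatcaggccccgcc
Irgm1: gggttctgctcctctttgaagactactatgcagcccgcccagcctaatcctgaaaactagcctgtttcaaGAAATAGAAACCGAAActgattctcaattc
Irgm2: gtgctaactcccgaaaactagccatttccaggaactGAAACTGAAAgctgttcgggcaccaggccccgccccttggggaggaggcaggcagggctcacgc
Tgtp1: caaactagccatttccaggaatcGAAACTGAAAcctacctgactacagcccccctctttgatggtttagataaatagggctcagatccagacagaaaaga
In the Gbp genes the match reads on the opposite strand, and Gbp3 and Irgm1 hold 2 overlapping matches each. Gbp and Irg genes are families of close copies that can share reads, so the values of single members are uncertain.

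Antigen presentation by class II molecules rose by about 2-fold. Of 11 tested genes 8 were higher and 0 lower (median 1.06). H2-Ab1, a class II beta chain, was at 125, 127 and 147 CPM in controls and 244, 269 and 411 CPM in GN captopril (log2 1.21 ± 0.19, adjusted p = 0.00178), and H2-Aa at 127, 137 and 154 against 242, 278 and 406 CPM (log2 1.15 ± 0.18, adjusted p = 0.00189). Cd74, the invariant chain, rose by 1.24 ± 0.20 (adjusted p = 0.00199). The groups did not overlap in these genes and GN captopril library 3 was highest. With library 1 alone against the controls, 1 member of the list was called.

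The activating receptors for immune complexes were raised. Of 7 Fc receptor genes 5 were higher: Fcgr1, Fcgr3 and Fcgr4, their shared signalling chain Fcer1g, and Fcrls. Fcer1g was at 6.94, 6.37 and 8.90 CPM in controls and 18.6, 16.8 and 33.3 CPM in GN captopril (log2 1.62 ± 0.24, adjusted p = 0.00129), and Fcgr1 rose by 1.33 ± 0.25 (adjusted p = 0.00472). The inhibitory receptor Fcgr2b and the neonatal receptor Fcgrt were at control level, and with GN captopril library 1 alone 2 genes of the list were higher. Of 23 complement genes 10 were higher and 0 lower (median 0.62). C1qa, which starts the classical pathway and is made by macrophages, was at 20.3, 21.7 and 24.4 CPM against 46.4, 54.6 and 99.7 CPM (log2 1.60 ± 0.24, adjusted p = 0.00145), and C3ar1, the receptor for the fragment C3a, at 3.12, 3.09 and 3.74 against 11.7, 10.1 and 18.4 CPM (log2 2.01 ± 0.21, adjusted p = 0.000239). C3, the central component, had 72.3, 54.6 and 79.2 CPM in controls and 90.4, 124 and 479 CPM in GN captopril. Each GN library was above the highest control, library 1 the nearest to it and library 3 several times higher than the other two. Its change was 1.74 ± 0.47 (log2, adjusted p = 0.032), and the call was lost without library 3 and without any 1 of the control libraries. Properdin (Cfp), which stabilises the alternative pathway, had 1.72, 1.33 and 1.48 against 7.71, 7.08 and 17.9 CPM (log2 2.81 ± 0.44, adjusted p = 0.00117). The regulators Cfi and Cd55 and the components C2 and Cfb were at control level.

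Acute-phase genes were divided. Of 14 tested 5 were higher, Saa3, Serpina3g, Serpina3f, Lbp and Cp, and 3 were higher without GN captopril library 3 or without any 1 of the control libraries, and 2 with GN captopril library 1 alone. Serpina3g, a protease inhibitor induced in activated leukocytes, was at 0.978, 1.64 and 1.22 CPM against 11.96, 8.89 and 17.2 CPM (log2 3.31 ± 0.36, adjusted p = 0.000232). It belongs to a cluster of near-identical genes and its counts may include reads of its neighbours. Ceruloplasmin (Cp) was at 52.00, 52.8 and 49.7 against 83.03, 84.5 and 95.3 CPM (log2 0.77 ± 0.09, adjusted p = 0.000303). Fga and Pigr were at control level.

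Markers of tubular injury were raised in part. Of 24 tested 9 were higher, 0 lower and 8 at control level (median 0.17), and 2 were higher with GN captopril library 1 alone. Havcr1 (chr11:46739822-46779578), encoding KIM-1 of injured proximal tubules, was at 2.42, 3.34 and 2.45 CPM in controls and 8.10, 6.31 and 9.40 CPM in GN captopril. The highest control was below the lowest GN library. The rise was 2.89-fold (log2 1.53 ± 0.34, adjusted p = 0.0113), while that between GN water and control captopril was 3.30 ± 0.31 (adjusted p of the difference 0.0415). Lcn2 (chr2:32384637-32387739), encoding the injury marker NGAL, had 3.86, 4.67 and 5.29 CPM in controls and 4.92, 3.84 and 9.90 CPM in GN captopril. Libraries 1 and 2 lay within or at the control range and library 3 was above it. Its change of 0.42 ± 0.30 did not pass the test (adjusted p = 0.391) and its interval (-0.22 to 1.06) was too wide to place it at control level. GN water exceeded control captopril by 3.78 ± 0.30 in Lcn2, and the difference of the changes was -3.36 ± 0.42 (log2, adjusted p = 0.00104). Timp1, which inhibits matrix metalloproteinases, had 0.279, 0.607 and 0.709 against 3.06, 2.25 and 2.87 CPM (log2 2.39 ± 0.37, adjusted p = 0.00115) and Cd44, a hyaluronan receptor of injured epithelium and leukocytes, had 3.35, 2.55 and 3.55 against 9.37, 7.79 and 14.2 CPM (log2 1.72 ± 0.27, adjusted p = 0.00187). Vim rose by 0.81 ± 0.17 (adjusted p = 0.0097) and Aldh1a2 by 0.81 ± 0.15 (adjusted p = 0.00438). At control level were the keratins Krt7, Krt8 and Krt18, osteopontin (Spp1), Sox4, Igfbp7, Cdkn1a and Hbegf. Intervals of 9 of the 24 genes lay within 1.5-fold of control, against 69.4% of all genes. Spp1 had 847, 880.4 and 882 CPM against 972, 746 and 946 CPM, a change of 0.03 ± 0.09.

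**Figure D2:**
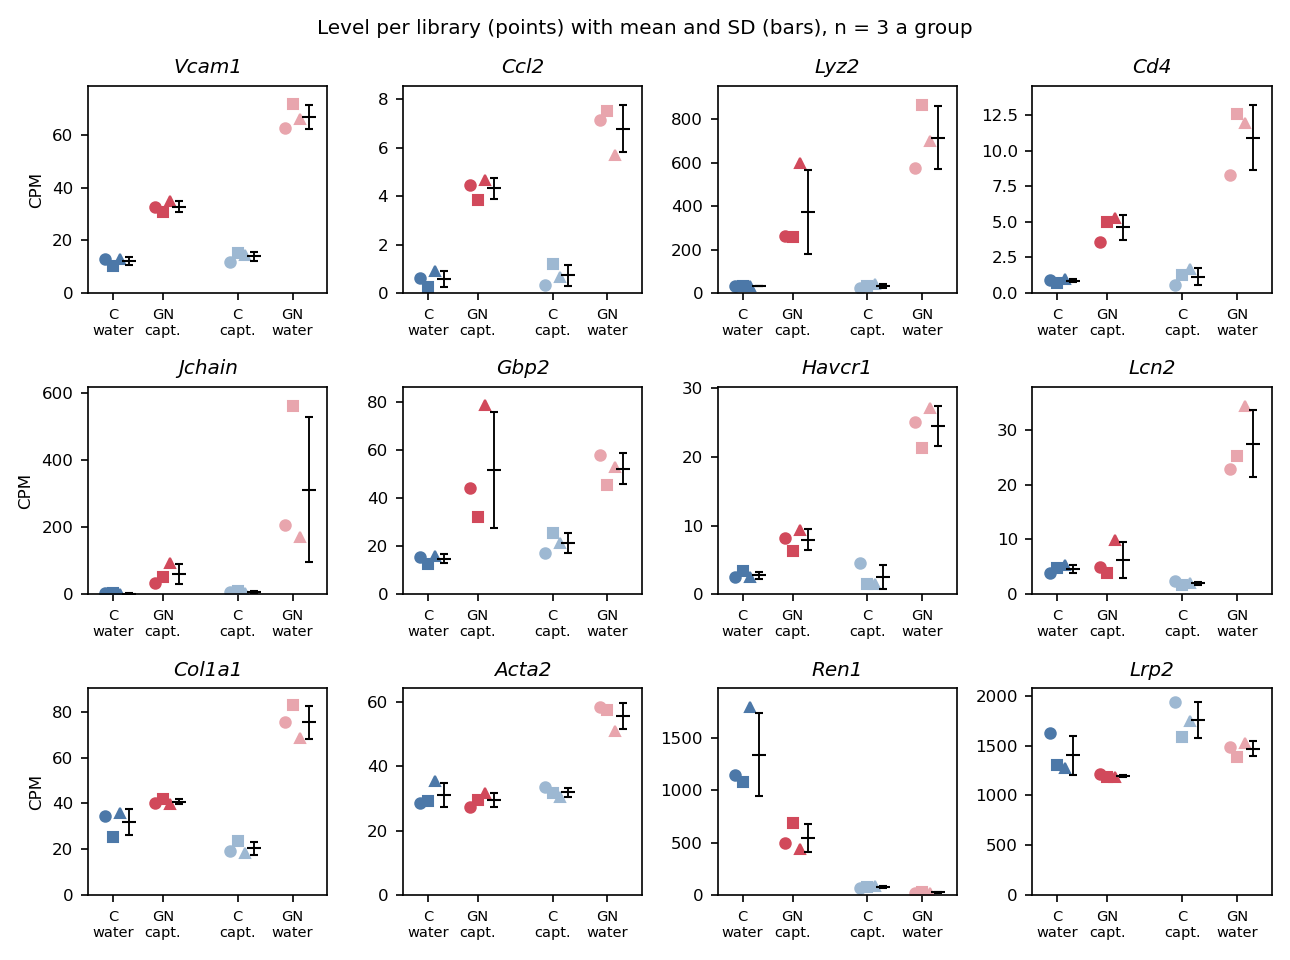
CPM of 12 genes in each library, with the group mean and SD beside the points; C is control, capt. is captopril, and the pale symbols are the control captopril and GN water libraries, which carry other sex-linked transcripts. Vcam1, Ccl2, Lyz2, Cd4, Jchain, Gbp2 and Havcr1 are higher in all GN captopril libraries than in any control water library, Ren1 is lower in all, and Acta2 overlaps.

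Matrix genes rose in a minority. Of 38 collagen and matrix genes 9 were higher and 2 lower (Col18a1 and Lamb2), against 7.05% and 5.02% of all genes (median 0.32). Intervals of 13 of the 38 lay within 1.5-fold of control, against 69.4% of all genes, and 12 were at control level. Without control water library 2 the higher count was 5, and without control water library 1 the lower count was 1. With GN captopril library 1 alone 1 was higher and 0 were lower, and with only the 6 libraries fitted 0 were lower. Tnc, encoding tenascin C of remodelling tissue, was at 2.98, 3.34 and 2.71 CPM against 6.64, 6.31 and 5.38 CPM (log2 1.02 ± 0.14, adjusted p = 0.000721), and Eln, elastin, at 8.80, 7.22 and 10.4 against 14.3, 13.99 and 15.8 CPM (log2 0.74 ± 0.14, adjusted p = 0.00548). Col3a1, a fibrillar collagen, was at 61.4, 47.9 and 62.2 against 88.4, 76.4 and 117 CPM (log2 0.71 ± 0.16, adjusted p = 0.0114; the call was lost without control water library 2). Col1a1 had 34.3, 25.5 and 35.8 CPM in controls and 40.4, 42.1 and 39.8 CPM in GN captopril. The GN libraries lay just above the highest control, and the change of 0.35 ± 0.12 did not pass the test (adjusted p = 0.0758). GN water exceeded control captopril by 1.89 ± 0.12 in this gene, and the changes differed by -1.54 ± 0.17 (adjusted p = 0.000533). In 13 of the 38 genes the change was smaller than in the other pair by the test of the difference and in 0 it was larger, against 3.34% and 3.17% of all genes. The basement membrane genes Col4a1, Col4a2, Col4a4, Lama1, Lamc1 and Nid1 were at control level, and Fn1, with 39.5, 28.4 and 32.1 against 33.7, 43.6 and 62.4 CPM, neither passed the test (adjusted p = 0.157) nor was placed there.

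Of 20 matrix proteases and inhibitors 8 were higher and 2 lower, against 7.05% and 5.02% of all genes. Mmp13, a collagenase, fell from 2.51, 2.18 and 2.64 CPM to 0.332, 0.768 and 0.502 CPM, the lower group not reaching the upper in any library (log2 -2.15 ± 0.32, adjusted p = 0.001). Mmp19 rose by 2.24 ± 0.45 (adjusted p = 0.00552). Adamts4, an aggrecanase, was the other lower gene, and the lower count fell to 1 without control water library 1 or 2 or GN captopril library 3, and in the fit of only 6 libraries. The counts with GN captopril library 1 alone were 3 higher and 1 lower. Intervals lay within 1.5-fold of control for 11 of 17 TGF-beta targets and myofibroblast genes, against 69.4% of all genes. Of the 17, 6 were higher, 8 were at control level and Ltbp1 was lower, a call lost without any 1 library other than GN captopril library 2. Of these genes 2 were higher with GN captopril library 1 alone. Ltbp2, a matrix binder of the TGF-beta family, had 0.978, 0.607 and 0.645 against 3.52, 3.46 and 5.81 CPM (log2 2.47 ± 0.32, adjusted p = 0.000422). S100a4, a calcium-binding protein of fibroblasts and leukocytes, had 1.96, 3.52 and 3.16 against 4.58, 7.90 and 12.1 CPM (log2 1.52 ± 0.29, adjusted p = 0.0054). Acta2, the smooth muscle actin of myofibroblasts and arterioles, was at 28.5, 29.2 and 35.5 CPM in controls and 27.4, 29.7 and 31.7 CPM in GN captopril, a change of -0.07 ± 0.09 with an interval of -0.26 to 0.13. Tgfb1 itself had 13.03, 10.8 and 16.4 against 19.3, 24.1 and 17.4 CPM (log2 0.61 ± 0.16, adjusted p = 0.0295), a call lost without GN captopril library 2 or without control water library 1 or 2.

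Of 26 cell cycle genes 2 were called higher, Top2a and Aurkb, a share near the 7.05% of all genes, and 0 were called with GN captopril library 1 alone, without GN captopril library 1, without library 3 and without control water library 2 or 3. In all, 14 of the 26 had every GN captopril library above every control, against 14.7% of all genes, and the list median was 0.57. Mki67, the proliferation antigen Ki-67, had 3.31, 2.85 and 2.97 CPM in controls and 6.31, 5.21 and 5.38 CPM in GN captopril, a change of 0.88 ± 0.28 that missed the threshold (adjusted p = 0.0601). Mcm2, Mcm5, Mcm6, Pcna, Rrm2, Tyms and Stmn1 were at control level. In the other pair 24 of the 26 were higher, against 16.9% of all genes. Intervals lay within 1.5-fold of control for 8 of 18 immediate early genes, the first responders to growth factors and stress, against 69.4% of all genes. These 8, at control level, were Jun, Jund, Fosl2, Ier3, Klf2, Klf4, Klf6 and Dusp1. Of the 18, 1 was called higher, Atf3 (1.35, 1.33 and 1.10 against 2.86, 2.58 and 3.66 CPM, 2.37-fold, adjusted p = 0.00237). Without control water library 3 the count was 3 without GN captopril library 3 it was 2, and with GN captopril library 1 alone it was 0.

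Most genes of the proximal tubule, which reabsorbs most of the filtrate, had intervals within 1.5-fold of control. Of 33 of its genes 25 were at control level and uncalled, 4 were lower, 1 was higher and 3 were undecided (median -0.08), against 69.4% of all genes whose interval lay within the band and 28 of 33 here. In 11 of the 33 every GN captopril library was nonetheless below every control (13.9% of all genes) and in 2 above. The sum of the markers Lrp2, Slc34a1 and Slc5a2 was 8913 to 10295 CPM in controls and 8606, 8156 and 7060 CPM in GN captopril libraries 1 to 3, each below every control. Lrp2, encoding the endocytic receptor megalin, was at 1630.0, 1308 and 1273 CPM in controls and 1212, 1187 and 1187 CPM in GN captopril, a change of -0.23 ± 0.09 (adjusted p = 0.119). Hnf4a, the transcription factor that maintains the segment, was at 1254, 1269.8 and 1219 against 1217, 1072 and 1046 CPM (log2 -0.17 ± 0.06, adjusted p = 0.0898). G6pc, the last enzyme of glucose release, fell from 736, 785 and 705 CPM to 444, 474 and 349 CPM (log2 -0.81 ± 0.10, adjusted p = 0.000435). Pck1, the rate-limiting enzyme of gluconeogenesis, had 1596, 1149 and 1326 CPM against 1527, 1553 and 1605 CPM with overlapping groups (log2 0.20 ± 0.18, adjusted p = 0.504), whereas the change between GN water and control captopril was -1.98 ± 0.18 (log2). The difference of the changes in Pck1 was 2.19 ± 0.25 (adjusted p = 0.000735). The 4 lower calls became 2 without GN captopril library 3 and in the fit of only 6 libraries, 7 without library 1, and 1 with library 1 alone.

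Genes of fatty acid oxidation, the main fuel of this segment, were lower in 10 of 33 cases, against 5.02% of all genes, and higher in 0, with 19 at control level (median -0.16). Acsl1, which activates fatty acids, fell from 353, 321 and 297 CPM to 217, 199 and 222 CPM (log2 -0.61 ± 0.07, adjusted p = 0.000416), and Acaa1b, a peroxisomal thiolase, from 555, 495 and 523 to 306, 339 and 339 CPM (log2 -0.68 ± 0.12, adjusted p = 0.00341). In both the groups were apart in every library. Acaa1b has a close copy, Acaa1a, and may share its reads. Acsm1, a medium-chain acyl-CoA synthetase, fell from 294, 301 and 234 to 174, 161 and 171 CPM (log2 -0.72 ± 0.11, adjusted p = 0.0015), and Hadh fell by 0.24 ± 0.04 (log2, adjusted p = 0.0051). In GN water 29 of the 33 were lower than in control captopril, against 13.2% of all genes. For 11 the test of the difference called the GN captopril change less negative, and it was called higher in 3.17% of all genes. Nuclear genes of oxidative phosphorylation were lower in 12 of 33 cases, against 5.02% of all genes. Each of the 33 intervals nonetheless lay within 1.5-fold of control, against 69.4% of all genes. Ndufb8, a complex I subunit, had 376, 440.2 and 395 against 304, 315 and 344 CPM (log2 -0.33 ± 0.07, adjusted p = 0.0095). These small shifts depended on scaling and libraries: upper quartile scaling left 6 lower calls for fatty acid oxidation and 3 for oxidative phosphorylation, the fit of only 6 libraries left 5 and 1, and leaving out control water library 2 left 1 for oxidative phosphorylation. Leaving out GN captopril library 2 left 6 and 3, and leaving out control water library 3 or GN captopril library 1 or 3 left 7 for oxidative phosphorylation. In the 2 lists 3 and 0 were lower with GN captopril library 1 alone.

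Several subunits of the phagocyte oxidase rose and several antioxidant enzymes fell slightly. Of 26 genes in the oxidative stress list 6 were higher and 9 lower, against 7.05% and 5.02% of all genes. The oxidase subunits Cybb, Ncf1 and Ncf4, which leukocytes express, were among the higher genes. Cyba, the p22phox subunit of the same oxidase, was at control level (390.3, 472 and 458 against 379.9, 393 and 418 CPM). Cybb had 13.7, 10.98 and 9.15 CPM against 26.4, 29.9 and 49.6 CPM (log2 1.62 ± 0.27, adjusted p = 0.00237). Gclc, the rate-limiting enzyme of glutathione synthesis, rose as well, from 288, 268 and 288 CPM in controls to 626, 344 and 566 CPM in GN captopril, with library 2 nearest the controls (log2 0.86 ± 0.17, adjusted p = 0.00618). Catalase (Cat), which breaks down hydrogen peroxide, fell from 1491, 1446 and 1475 to 1143, 1218 and 1141 CPM (log2 -0.33 ± 0.06, adjusted p = 0.0039), and Gsta2, a glutathione transferase, by 0.54 ± 0.07 (log2, adjusted p = 0.000774). Nqo1, Gclm, Txnrd1 and Srxn1, classic targets of Nrf2, were at control level, while other targets in the list, Gclc among them, were higher. The 9 lower calls became 5 without control water library 2 or GN captopril library 2 and 4 in the fit of only 6 libraries, and with GN captopril library 1 alone 2 were higher and 1 lower. Of 16 genes of the unfolded protein response 12 were at control level, Xbp1 was higher (adjusted p = 0.0178, lost without GN captopril library 3 or control water library 2) and Atf4 lower (adjusted p = 0.0296, lost without GN captopril library 1 or 3 or control water library 2). Intervals of 13 of the 16 lay within 1.5-fold of control, against 69.4% of all genes.

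The distal nephron, which tunes salt and acid excretion, was somewhat lower. Of 24 genes of the distal convoluted tubule and collecting duct 10 were lower and 0 higher (median -0.32), and of 9 genes of the thick ascending limb 4 were lower, against 5.02% of all genes. Scnn1a, the alpha subunit of the aldosterone-regulated sodium channel ENaC, was at 154, 134 and 132 CPM in controls and 103, 101 and 92.1 CPM in GN captopril, with no overlap (log2 -0.50 ± 0.07, adjusted p = 0.000637). Atp6v1b1, a proton pump subunit of intercalated cells, was at 109, 97.03 and 109 against 78.3, 77.2 and 74.6 CPM (log2 -0.45 ± 0.06, adjusted p = 0.00047), and Hsd11b2, which shields the aldosterone receptor from glucocorticoid, fell by 0.40 ± 0.07 (adjusted p = 0.00332). Egf, a growth factor made by the thick ascending limb and distal tubule, had 2024, 1545 and 1289.8 CPM against 1248, 1119.7 and 1116 CPM (log2 -0.48 ± 0.13, adjusted p = 0.0284), a call lost without control water library 1 or 2 or GN captopril library 2 or 3. Slc12a3, the thiazide-sensitive cotransporter, had 592, 445 and 516 CPM against 456, 431 and 348 CPM and did not pass the test (log2 -0.33 ± 0.12, adjusted p = 0.0803). The 10 lower calls became 5 without control water library 1 and 5 without GN captopril library 3, and the 4 of the thick ascending limb became 1 without control water library 1 or GN captopril library 2 or 3, and 2 without control water library 2. The fit of only 6 libraries left 6 and 1, and GN captopril library 1 alone left 4 and 0. The summed level of the medulla markers Aqp2, Umod and Slc14a2 was 2699 to 3557 CPM in controls and 2205 to 2853 CPM in GN captopril; its part in these differences was not tested.

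Few glomerular and vascular cell genes were called, and few of all genes were (12.1%). Intervals lay within 1.5-fold of control for 15 of 23 podocyte, 18 of 20 endothelial and 11 of 14 mesangial and smooth muscle genes, against 69.4% of all genes. Among 23 podocyte genes 14 were at control level and uncalled, 2 were lower (Podxl and Ptpro) and 1 was higher. Wt1, the podocyte transcription factor, was at 11.9, 9.65 and 11.5 against 9.63, 8.78 and 9.04 CPM (log2 -0.27 ± 0.13, adjusted p = 0.196). Both lower calls were lost without GN captopril library 3, without control water library 1 or 3 and in the fit of only 6 libraries. Of 20 endothelial genes 16 were at control level and uncalled, with Pecam1 higher by 0.32 ± 0.06 (adjusted p = 0.00501) and Ehd3, of glomerular endothelium, lower by 0.30 ± 0.09 (adjusted p = 0.0457, lost without control water library 1, 2 or 3 or GN captopril library 2 or 3). Of 14 mesangial and smooth muscle genes 9 were at control level and uncalled, among them Myh11, Des, Itga8 and Pdgfrb. Mcam was higher by 0.27 (log2), and Gata3 was lower, a call lost without control water library 1 or 2 or GN captopril library 1 or 3. Both calls were lost in the fit of only 6 libraries. Of these 3 lists 0 genes were called with GN captopril library 1 alone. For 4 of the 14 mesangial and smooth muscle genes the change was smaller than in the other pair by the test of the difference, against 3.34% of all genes.

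Renin was the 1 gene of its system that fell past the threshold, and without control water library 3 there were 3. Ren1 (chr1:133350674-133360320), the protease that starts angiotensin production, was at 1142, 1083 and 1794 CPM in controls and 499, 691 and 438 CPM in GN captopril. Every GN library was below every control, and control library 3 was highest. The fall was 2.47-fold (log2 -1.30 ± 0.20, adjusted p = 0.00178), and the call was kept when any 1 of the 6 libraries was left out. In GN water against control captopril the change was -1.59 ± 0.22, and the difference of the changes was 0.29 ± 0.30 (adjusted p = 0.598). Ren2 is listed too, at 7.12, 5.28 and 12.7 against 2.59, 4.06 and 1.44 CPM, but C57BL/6 mice lack this gene, so its reads are taken as uncertain and may belong to Ren1. Of 19 genes of the renin, angiotensin and kinin list 12 had intervals within 1.5-fold of control, against 69.4% of all genes. All 12 were at control level, including Agt, Ace and Agtr1a, and 1 of the 19 was lower, against 5.02% of all genes. Ptgs2, the cyclooxygenase of the macula densa that stimulates renin release, rose from 1.07, 1.58 and 1.48 to 2.39, 3.35 and 3.16 CPM (log2 1.12 ± 0.28, adjusted p = 0.0207), a call lost without GN captopril library 2 or 3 or control water library 1.

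Clock genes moved in both directions. Of 19 tested 7 were higher and 3 lower, against 7.05% and 5.02% of all genes. Dbp (chr7:45705100-45710203), an output factor that Clock and Arntl switch on, was at 39.2, 49.4 and 59.1 CPM in controls and 114, 122 and 125 CPM in GN captopril. The GN libraries lay close together and exceeded every control, with a rise of 1.29 ± 0.14 (log2, adjusted p = 0.00026). Ciart, a repressor within the loop, was at 1.40, 1.40 and 2.06 against 5.85, 5.27 and 9.97 CPM (log2 2.12 ± 0.30, adjusted p = 0.000917), and Tef, a relative of Dbp, at 259, 269.7 and 267 against 350.0, 387 and 354 CPM (log2 0.45 ± 0.08, adjusted p = 0.00286). Per3, Cry2, Nr1d2 and Bhlhe41 were the other genes higher. Arntl (chr7:113178471-113314126), the core activator also called Bmal1, fell from 16.4, 11.9 and 12.1 CPM to 4.25, 5.27 and 3.16 CPM (log2 -1.66 ± 0.25, adjusted p = 0.00117), and its relative Npas2 from 13.03, 10.6 and 9.99 to 4.52, 5.60 and 2.01 CPM (log2 -1.45 ± 0.25, adjusted p = 0.00299). Nfil3 was the third. In GN water against control captopril Dbp, Ciart and Tef went the other way, by -2.42 ± 0.16, -2.31 ± 0.47 and -0.94 ± 0.08 (log2), and Arntl by 0.70 ± 0.21. The difference of the changes was called for 14 of the 19 genes, 11 higher and 3 lower, against 3.17% and 3.34% of all genes. In Dbp it was 3.71 ± 0.21 (adjusted p = 2.69e-06). The sources used here give no hour of day for the collection of kidneys, and its part was not tested. The 7 higher calls became 4 without GN captopril library 1 or 3, or control water library 2, and 2 with GN captopril library 1 alone.

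The E-box CACGTG, the palindromic element that Clock and Arntl bind, lies in the promoters of 3 of the 10 called clock genes (30.0%), all with a RefSeq entry, and in 8.09% of all genes. The 160 bases before the start are shown for these 3, Ciart at chr3:95882229-95882388 and Bhlhe41 at chr6:145865421-145865580 on the minus strand, and Tef, for the first of its starts with a match, at chr15:81802513-81802672 on the plus strand. E-boxes are in capitals.
Ciart: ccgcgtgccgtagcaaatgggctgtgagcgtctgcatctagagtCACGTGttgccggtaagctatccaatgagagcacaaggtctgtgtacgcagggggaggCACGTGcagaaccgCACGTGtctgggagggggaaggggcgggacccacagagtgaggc
Tef: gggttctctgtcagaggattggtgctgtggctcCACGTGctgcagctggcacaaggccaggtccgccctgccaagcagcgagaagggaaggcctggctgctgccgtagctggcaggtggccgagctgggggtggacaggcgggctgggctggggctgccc
Bhlhe41: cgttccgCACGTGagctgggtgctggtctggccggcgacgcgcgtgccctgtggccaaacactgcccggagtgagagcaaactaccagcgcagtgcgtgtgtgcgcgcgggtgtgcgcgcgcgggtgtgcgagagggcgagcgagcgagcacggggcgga
Ciart holds 3 E-boxes in this window and the other two hold 1 each. All 3 genes were higher in GN captopril. The list was made of clock genes, so a share above that of all genes goes with its choice, and the share among its uncalled members was not computed.

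Other genes with large falls belonged to no list. Hspa1b, an inducible heat shock protein, had 131, 30.8 and 24.1 CPM in controls and 16.9, 14.5 and 11.98 CPM in GN captopril, with control library 1 far above the others (log2 -2.11 ± 0.51, adjusted p = 0.0186), a call lost without GN captopril library 2 or 3. It has a near-identical copy, Hspa1a. Bcl6, a transcriptional repressor, fell from 62.5, 62.9 and 96.1 CPM to 33.9, 19.5 and 16.4 CPM (log2 -1.67 ± 0.26, adjusted p = 0.00179). Banp, a nuclear DNA-binding protein, fell from 21.7, 18.9 and 15.3 to 5.65, 5.43 and 5.17 CPM (log2 -1.79 ± 0.21, adjusted p = 0.00034), and Ypel2 from 30.5, 22.1 and 22.8 to 11.9, 9.87 and 8.40 CPM (log2 -1.33 ± 0.15, adjusted p = 0.000278). The groups were well apart in both. Of 10 androgen-induced genes 1 was called higher, a share near the 7.05% of all genes, 7 were at control level and 2 were undecided. The called gene was Odc1, the androgen-responsive first enzyme of polyamine synthesis. It rose from 1039.6, 985 and 1223 to 1682, 2084 and 1691 CPM (log2 0.75 ± 0.11, adjusted p = 0.000927).

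To describe what stayed at control level, genes were first chosen by a contrast that holds none of these 6 libraries, though within the same fit. GN water against control captopril gave 2476 genes higher (16.9%) and 1930 lower (13.2%), with 1082 higher (7.4%) and 76 lower (0.52%) by 2-fold or more. Of the 1082 raised genes 503 (46.5%) were also higher in GN captopril, which is 48.8% of its 1031 higher calls, and 1 gene, Npas2, was lower. The median change over the 1082 was 0.92 in GN captopril and 1.69 in the contrast that chose them, which is inflated by the choice. In size, 1005 of the changes were smaller in GN captopril, a direction that the choice favours too. The test of the difference of the changes, given for single genes and lists above, by its algebra also contrasts captopril with water over disease, and the sex-linked background differs between the pairs, so these cannot be told apart. Of the 1930 genes lower in GN water 252 (13.1%) were lower in GN captopril, and 1680 (87.0%) had an interval within 1.5-fold of control. The 503 shared calls became 326 without GN captopril library 3.

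Only 32 of the 1082 genes (2.96%) could be placed within 1.5-fold of control, against 69.4% of all genes. Of the rest, 548 were neither called higher or lower nor placed, so they are undecided at this number of libraries. The 32 had been raised by 3.55-fold at most in GN water, and the choice itself makes their change smaller in GN captopril. Cpxm1, a carboxypeptidase-like protein of the matrix, had been raised 3.55-fold in GN water and had 9.68, 8.80 and 10.1 CPM in controls and 8.70, 9.93 and 12.8 CPM in GN captopril. The groups overlapped, and the change of 0.14 ± 0.16 had an interval of -0.20 to 0.48. Lrg1, a glycoprotein that modulates TGF-beta signalling in vessels, had 4.28, 3.76 and 3.74 against 2.86, 4.39 and 4.16 CPM (interval -0.54 to 0.45). Frzb, a secreted Wnt antagonist, had 25.7, 25.4 and 25.9 against 27.9, 30.4 and 27.98 CPM (interval -0.06 to 0.40), the GN libraries just above the controls. Other matrix and stromal genes among the 32 were Col15a1, C1qtnf5, Emilin1, Tgfbi and Ngfr. Col15a1, a collagen of basement membrane zones, had 35.2, 27.2 and 30.3 against 37.99, 34.4 and 32.6 CPM (interval -0.11 to 0.46). Foxm1 and Mcm5, which act in mitosis and DNA replication, belonged to the same group, Foxm1 with 1.54, 1.27 and 1.35 against 1.33, 1.48 and 1.44 CPM and Mcm5 with 6.33, 5.10 and 7.22 against 6.04, 5.65 and 7.68 CPM. Serpina1d, of the antitrypsin family, had 219, 286 and 205 against 216, 226 and 263 CPM, and its family members can share reads. Lgals3 (galectin-3), Aqp2 and Cfi were also in the group. Litaf and Sdc1 lay within the band and yet passed the test upward, with changes of 0.35 and 0.33 (log2). The count of 32 depended on the libraries: it was 14 without control water library 3, 17 without GN captopril library 1 and 16 without library 2.

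**Figure D3:**
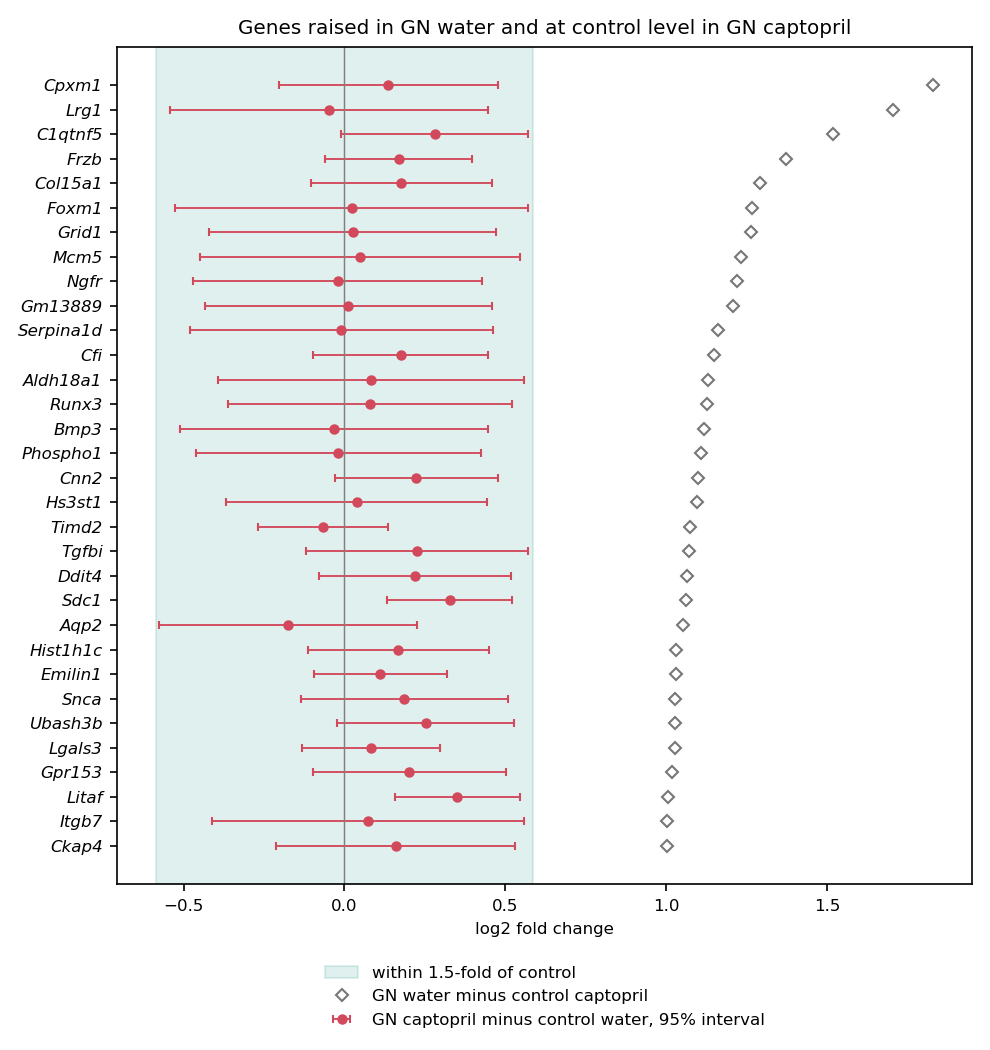
The 32 genes raised 2-fold or more in GN water that lay within 1.5-fold of control (shaded) in GN captopril, with the log2 fold change and its 95% interval (red) and the change in GN water (grey diamonds). The red intervals lie within the shaded band and the diamonds lie outside it to the right, both by the choice of genes.

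The GN captopril libraries differed from each other in how far these genes rose. Over the 1082 genes raised in GN water, the median distance from the control mean was 0.72 in library 1, 0.73 in library 2 and 1.10 in library 3 (log2), while each control set against the mean of the other two had a median between -0.06 and 0.11. Library 3 was the highest of the 3 in 749 of the 1082 genes and the lowest in 129, against 5276 and 5252 of all 14618 genes. The SD of log2 CPM among GN captopril libraries was larger than among controls in 653 of the 1082 genes (60.4%), against 49.5% of all genes. In a principal component analysis of the 6 libraries the first component (50.7% of the variance) placed controls at -29.5 to -21.2 and GN captopril libraries 1 to 3 at 16.6, 18.6 and 43.2. The second (18.8%) ran from 34.0 in library 1 through -1.52 in library 2 to -20.0 in library 3.

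Adrenal and fat transcripts spread widely among the GN captopril libraries. Star, which moves cholesterol into steroid-making mitochondria, was at 0.884, 1.03 and 0.967 CPM in controls and at 0.731, 7.90 and 41.8 CPM in GN captopril libraries 1 to 3. Cyp11b1 and Cyp21a1, the adrenal hydroxylases, were at 0 in every control and in GN captopril library 1. Cyp21a1 reached 2.96 and 20.95 and Cyp11b1 2.08 and 14.6 CPM in libraries 2 and 3. Adipoq, the fat cell hormone adiponectin, had 6.05, 2.12 and 8.45 CPM in controls and 0, 9.98 and 35.5 CPM in GN captopril, and Cfd (adipsin) 41.1, 10.7 and 34.9 against 0.399, 52.2 and 153 CPM. Library 1 was thus below every control in fat transcripts and library 3 above every control. None of these genes passed edgeR's test of the groups (adjusted p = 0.158 for Star and 0.414 for Adipoq), although DESeq2 called 5 and the replicate block 4 of the 8 adrenal genes higher. Whether tissue from beside the kidney adds to the immune levels of libraries 2 and 3 was not tested.

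**Figure D4:**
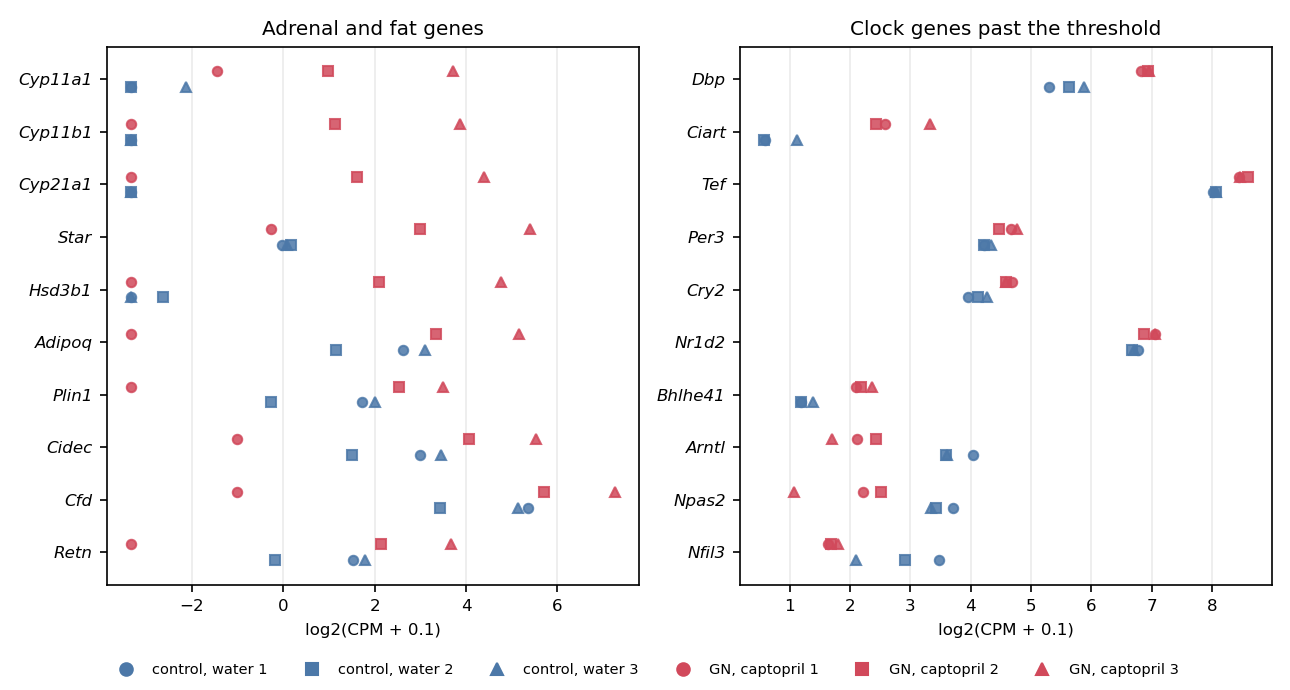
Level of adrenal and fat genes (left) and of clock genes past the threshold (right) in each library, as log2(CPM + 0.1), where the lowest level drawn is 0 CPM. GN captopril library 1 lies at or below the controls in nearly all adrenal and fat genes, library 3 above them, while for most clock genes the 3 GN captopril libraries lie together.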

How the data were processed

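Kidney cortex mRNA of 12 libraries, 3 in each of 4 groups, was compared. The deposited tables give estimated counts per gene symbol, not scaled for depth (86.4% of values whole), and RPKM computed by the authors. Partek, Bowtie2 and the mm10 build are named, without versions or roles, per the submitters' processing notes; the sources used here give no annotation or filter. Estimated counts were rounded, scaled by TMM and filtered by filterByExpr (minimum count 10, minimum total 15). All 12 libraries, with 1 mean for each group, entered edgeR 4.0.16's quasi-likelihood test, with Benjamini-Hochberg adjustment over 14618 genes; ± is 1 SE of log2 fold change, and the half-width of the 95% interval had a median of 0.218. On simulated data the test recovered 93% of 100 genes changed by 1 (log2) and 100% of 100 changed by 2, of 14500. These counts were drawn with the spread fitted here and the changed genes had a mean of at least 1 CPM. Uneven libraries were not simulated, so the shares do not cover lower genes or such libraries. No set test was run.

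The genes and lists were chosen with earlier results of these data known. Named were the largest non-overlapping changes, at most 4 called members of a list, 30 chosen genes, the 10 with the largest spread, 10 at control level and 12 by difference of changes; a few others were named after their values were seen, and some genes are not reported here. Alternatives were other scalings, no filter, DESeq2 1.42.0, limma 3.58.1 on log2(RPKM + pseudocount), the replicate block, other bands and left-out libraries. Plots used Python 3.11.15 and matplotlib 3.10.9.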

Additional observations from a re-analysis of the deposited data

Results flagged for a closer look

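The change between GN captopril and control water differed from that between GN water and control captopril, by the test of the difference itself (edgeR's quasi-likelihood test, adjusted p under 0.05), in 464 genes where it was higher (3.17%) and 488 where it was lower (3.34%). The test also contrasts captopril with water, over pairs that differ in sex-linked transcripts, and these cannot be told apart. The largest positive differences included 3 adrenal genes. Hsd3b1 (adjusted p = 0.0271), Cyp11a1 (adjusted p = 0.0339) and Star (adjusted p = 0.0358) were highest in control captopril library 3, with 79.9, 28.8 and 109 CPM, and next in GN captopril library 3, so single libraries with adrenal transcripts move with them. The clock genes Ciart (adjusted p = 0.000735) and Dbp (adjusted p = 2.69e-06) rose in GN captopril and fell in GN water.

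The 6 with the largest negative differences rose in GN water and were not called in GN captopril. Lcn2 (adjusted p = 0.00104) had 22.8, 25.2 and 34.4 CPM in GN water and 2.29, 1.70 and 1.97 CPM in control captopril. Igfbp2, a binding protein of insulin-like growth factors (adjusted p = 0.00225), had 8.89, 8.47 and 9.24 CPM in GN water and 0.673, 0.461 and 0.506 CPM in control captopril, against 2.72, 2.41 and 3.30 CPM in GN captopril and 0.698, 2.25 and 1.61 CPM in control water. Sprr1a, a cornified envelope protein (adjusted p = 0.00881), had 8.06, 5.26 and 8.75 CPM in GN water and 1.66, 1.04 and 1.72 CPM in GN captopril. Psca (adjusted p = 0.0156), Rph3a (adjusted p = 0.0431) and the urea transporter Slc14a2 (adjusted p = 0.0404) spread widely within groups, Psca from 1.32 to 5.63 CPM in GN water and Slc14a2 from 6.12 to 29.03 CPM in control captopril.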

How the results depend on the processing

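Counts of genes depended on libraries, scaling and table, and the cause was not tested. Leaving out 1 library in turn gave 597 to 940 genes higher (1031 with all), 360 to 703 lower (734), 266 to 442 higher by 2-fold (422), 19 to 37 lower by 2-fold (28) and 9597 to 9975 within 1.5-fold of control (10152). For GN water against control captopril it gave 1744 to 2152 higher, 1317 to 2199 lower and 881 to 1039 raised by 2-fold, the 1082 raised genes being kept where the library left out belonged to GN captopril or control water. For the difference it gave 239 to 756 higher (756 without control water library 1, 239 without library 2) and 217 to 715 lower (217 without GN water library 3). Of the raised genes, 326 to 518 were also higher in GN captopril and 14 to 37 were within 1.5-fold of control. With GN captopril library 1 alone, assumed to vary like the other groups, 204 were higher, 67 lower, 137 higher and 13 lower by 2-fold, the difference was called higher in 253 and lower in 294, and of the raised genes 139 were higher and 19 within the band.

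Upper quartile scaling left 469 lower, and the fit of only 6 libraries left 216 lower and 17 lower by 2-fold. DESeq2 gave 726 positive differences. Limma on RPKM with a pseudocount of 0.1 gave 318 lower, 174 higher and 7 lower by 2-fold, and for GN water 955 lower and 527 raised; with a pseudocount of 1 it gave 274, 37, 1, 984 and 121, with 752 negative differences, 80 raised genes also higher and 12 within the band. The share of upward calls was 78.2% and 77.0% in these fits and 75.3% with library 1 alone, against 58.4%. A narrower band held 6071 genes and 3 of the raised ones, and one of 2-fold held 185 of the raised ones. A change of sign was counted only where the main or the alternative fit made a call. Among such values of the named genes only Sele and Serpina3g changed sign, both in the difference and with the pseudocount of 1, to -0.0252 and -0.337. For the named genes, 246 alternative values for GN captopril against control water lost a call, 22 gained one, 0 reversed and 2394 did neither.

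Whether the number in the library titles pairs the libraries was not tested. The correlations of deviations between libraries of 1 number were 0.13, 0.06 and 0.12, and each GN captopril library correlated best with the control of its number. The replicate block gave 1042 higher and 819 lower genes and kept 1633 of the 1765 calls. Depth limits low genes: 3 counts are 0.140 to 0.215 CPM in these 6 libraries, and 548 of the 1082 raised genes were neither called nor within the band.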

Other observations

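Lists that checked for other sources of RNA gave the calls below, against 7.05% higher and 5.02% lower among all genes. A list with few calls is not thereby shown to be free of such RNA. Of 10 medulla genes 1 was higher and 1 lower. The lower one was Slc5a3, the osmotically regulated inositol transporter (118, 114 and 72.7 against 70.5, 44.9 and 63.5 CPM, edgeR adjusted p = 0.035), a call lost without control water library 1 or 2 or GN captopril library 2 or 3. Of 11 blood and globin genes Pf4, a platelet chemokine, was higher (0.419, 0.728 and 0.451 against 1.06, 1.21 and 2.58 CPM, adjusted p = 0.0252), a call lost without GN captopril library 3 or control water library 1 or 3, and the count was 4 without GN captopril library 2. Of 7 lymph node genes Ccl19 and Cxcl13, both chemokines, were higher (0 with GN captopril library 1 alone), Ccl19 with 4.79, 5.83 and 4.96 against 8.17, 10.3 and 13.4 CPM (adjusted p = 0.00628). Of 9 female-biased kidney genes Hao2 was lower (541, 597 and 528 against 430.2, 323 and 500.0 CPM, adjusted p = 0.0472), a call lost without any 1 library other than GN captopril library 3. By edgeR 0 of 8 adrenal, 0 of 10 fat and 0 of 7 pancreas and liver genes were called, with 3, 2 and 3 at an unadjusted p under 0.05. The adrenal genes had a median change of 5.45 (log2). Their median SD of log2 CPM was 2.71 in GN captopril and 0.0955 in control water, so the lack of calls does not place them at control level. DESeq2 called 5 of the adrenal genes higher, and the replicate block called 4 of them higher and 1 pancreas and liver gene lower.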
